A study of Mus musculus with 7 samples.

Results

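The genes described here mark the glia and the ventricular lining of the hypothalamus: 22 genes of astrocytes and 11 genes of the tanycytes and ependymal cells that border the third ventricle, 33 in all of the 18193 genes measured. They were taken by symbol, with the probe sets (groups of probes on the array that report on 1 transcript) that the array's annotation gives to only 1 gene, and the probe set of highest mean stood for its gene. All 33 were measured, on 73 probe sets, and no filter on low values was applied. The samples were hypothalami of mice at 3 months of age: 3 arrays of Creb-PomcCre-/- mice, named for Creb deletion by a Cre driven from Pomc and called knockout here, and 4 arrays of wild type mice. The labels number the samples as biological replicates, and do not give the sex of the mice, whether a sample pooled several mice, or whether the wild type mice carried Cre or a floxed Creb allele. Values are log2 expression, and every difference is knockout minus wild type on that scale.

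Astrocytes take up the glutamate and potassium that neurons release, store glycogen, wrap blood vessels with their endfeet and are joined to each other by gap junctions. Tanycytes are radial glia in the floor and lower walls of the third ventricle. They send processes into the arcuate nucleus and the median eminence, where Pomc neurons also lie, and they carry nutrients, leptin and thyroid hormone signals between cerebrospinal fluid, blood and neurons. Multiciliated ependymal cells line the upper wall and move the fluid by beating cilia. Creb was deleted through Pomc, and the comparison asks whether RNA of these genes differs in the hypothalamus as a whole. It cannot single out the glia around the arcuate neurons.

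The arrays were alike in overall signal, with medians between 6.20 and 6.24. Creb1 read 9.42, 9.46 and 9.47 in the knockout arrays, against 9.44, 9.57, 9.40 and 9.56 in the wild-type arrays, and did not pass (limma, adjusted p = 0.787). Most hypothalamic cells do not express Pomc and keep Creb, so that this value does not check the labels. Wild-type arrays 2 and 3 stood apart in markers of neighbouring tissue. The meningeal score, the median deviation of 20 markers from their means over all arrays, was 0.57 and 1.21 on these arrays, and -0.47 to -0.26 on the 3 knockout arrays and -0.45 and -0.29 on the other wild-type arrays. Wild-type array 2 also had the highest thalamic score, 0.87. Counts and medians over the gene lists are therefore given with and without these arrays. In tissue RNA, fewer cells of a type and less RNA per cell cannot be told apart.

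None of the 33 genes passed the threshold of 0.05 on the adjusted p (limma, smallest adjusted p = 0.267, for Mia), where 0.011% of all genes did. None of their 73 probe sets passed either, where 0.00666% of all probe sets did. The astrocyte genes were centred on no change, with 12 higher and 10 lower in the knockout and a median log2 difference of 0.0086, beside a median of 0.0036 over all genes tested. The lining genes had 5 higher and 6 lower and a median of -0.023. Without wild-type arrays 2 and 3 the medians were -0.0055 for the astrocyte genes and 0.032 for the lining genes. The genes of smallest p in each list lay on 1 side. At an unadjusted p under 0.05 there were 5 astrocyte genes (Gfap, S100b, Gja1, Ppp1r3c and Cbs) and 3 lining genes (Gpr50, Rax and Mia), 8 of 33 in all, and every one of them was higher in the knockout, where 5.6% of all genes were higher and 6.12% lower at that p. For 6 of these, the exceptions being S100b and Gpr50, the 3 knockout values exceeded every wild-type value, as for 6.09% of all genes. This was read on the probe set that stood for each gene, and the other probe sets of Gfap, Ppp1r3c, Cbs and Gja1 overlapped. No gene of the 33 had every knockout value below the wild-type values, as 6.05% of all genes did. With wild-type arrays 2 and 3 left out, which cannot end a separation, those 6 genes lay above and 4 (Slc4a4, Acsbg1, Itih3 and Dynlrb2) lay below, where 12% and 12.6% of all genes did. The members and lists were chosen with results of these data known, so these shares are a description and were not tested. With 1 array left out, the number of higher genes at that p was 4 without knockout array 1 or 2 or wild-type array 2, 5 without knockout array 3 or wild-type array 3 or 4, and 7 without wild-type array 1. It was 5 without an intensity trend in the test. Without knockout array 2, Atp1b2 was lower at that p. Without wild-type arrays 2 and 3 it was 2 (Gfap and Mia), where 2.63% of all genes were higher at that p.

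**Figure D1:**
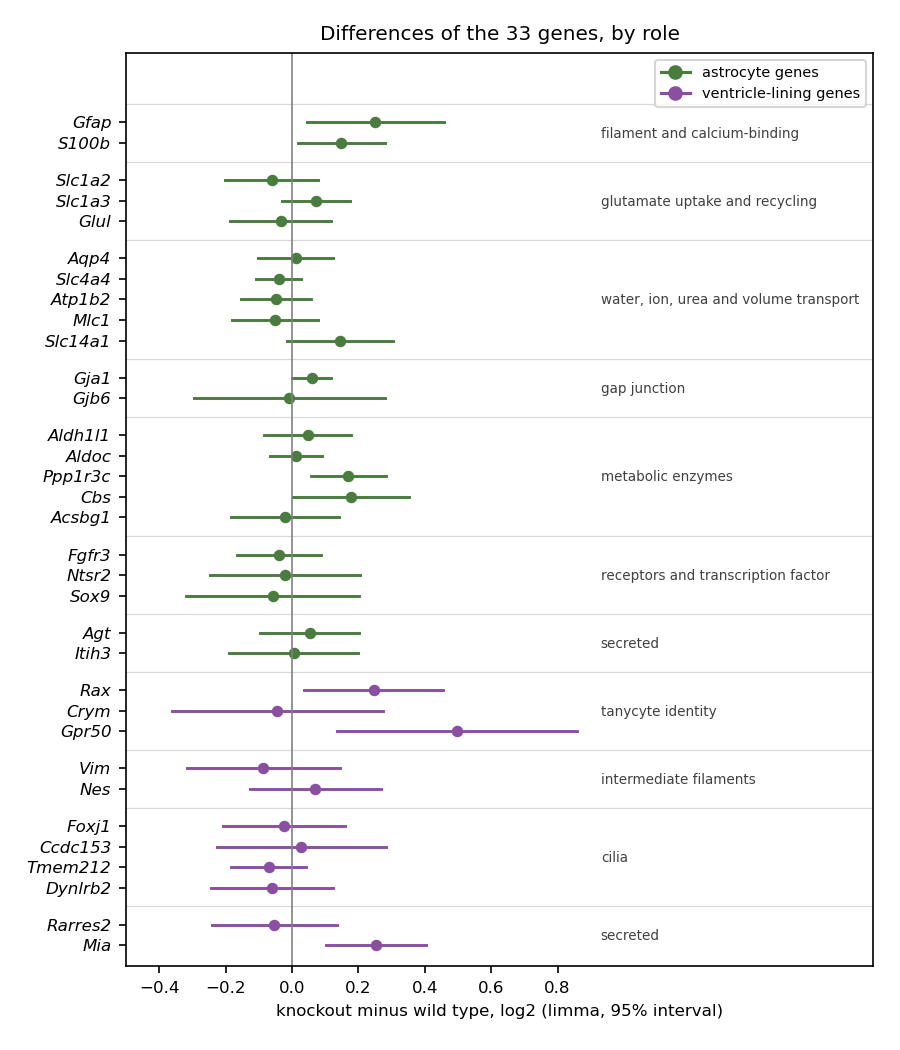
Knockout minus wild-type log2 difference of each of the 33 genes (points) with limma's 95% interval (lines), ordered by role from top to bottom. The intervals of 8 genes lie above 0, from Gja1 at 0.059 to Gpr50 at 0.50, and no interval lies below 0.

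How far a change could have escaped notice differs between the lists. For 15 of the 22 astrocyte genes the 95% interval of the difference (limma, not adjusted for the number of genes) lay wholly within 1.2-fold in either direction, which is 0.26 on the log2 scale. That held for 4 of the 11 lining genes. Each interval was read on the probe set that stood for its gene, and those of some dimmer probe sets reached further. The lining genes varied more between arrays of 1 genotype, with a median pooled SD of 0.12 and 9 of 11 above the median of all genes (0.093). The astrocyte genes had a median pooled SD of 0.093, with 11 of 22 above it.

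**Figure D2:**
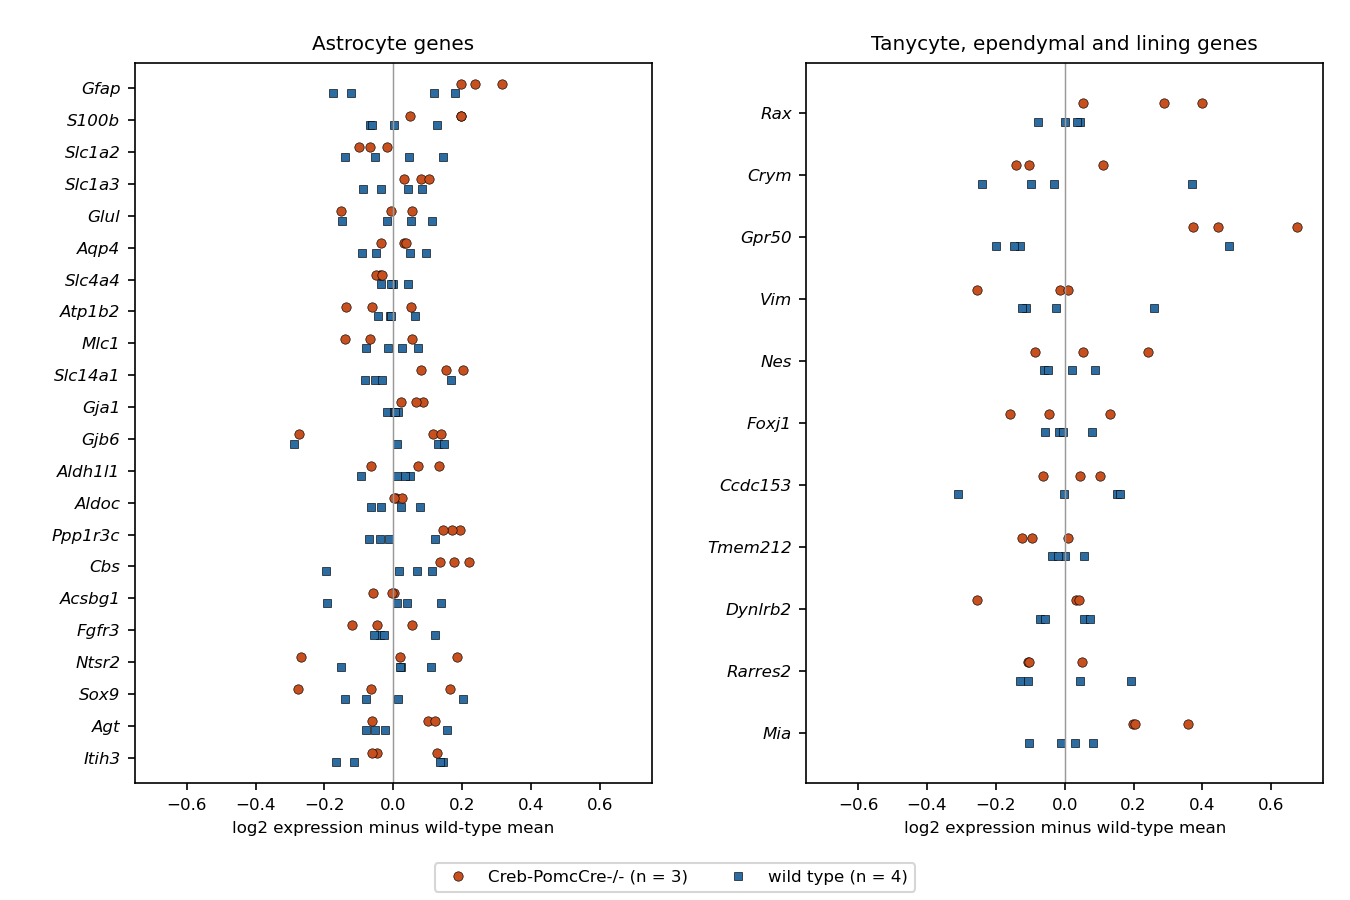
Log2 expression of each gene on each array, as the deviation from that gene's wild-type mean (circles, 3 knockout arrays; squares, 4 wild-type arrays; astrocyte genes left, lining genes right). Most genes overlap between genotypes, while the knockout circles of Gfap, Ppp1r3c, Cbs, Gja1, Rax and Mia all lie to the right of the wild-type squares.

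Promoters of the genes were read for the cAMP response element (CRE), the site that CREB binds, because Creb is the deleted gene. Creb was deleted through Pomc and most hypothalamic cells keep it, so a site or its absence cannot tell why a gene differed. The matches are of letters only and do not show that CREB binds. RefSeq windows (GRCm38.p6) of 250 bases before to 50 after a start were found for 25 of the 33 genes, 28 windows in all, the others being Rax, Rarres2, Atp1b2, Sox9, Foxj1, Crym, Aqp4 and Slc14a1. The full element, TGACGTCA on either strand, was in 0 of the 28, and in 1.79% of all 32851 windows. Its core, TGACG or CGTCA, which is also part of the full element, was in those of Gja1 and Slc1a3, 2 of the 28, and in 20.8% of all windows. Gpr50 and Mia, which had the largest difference and the smallest p, held neither. These 4 windows are shown 5′ to 3′, with each core in capitals.
Gja1, chr10:56377050-56377349, plus strand: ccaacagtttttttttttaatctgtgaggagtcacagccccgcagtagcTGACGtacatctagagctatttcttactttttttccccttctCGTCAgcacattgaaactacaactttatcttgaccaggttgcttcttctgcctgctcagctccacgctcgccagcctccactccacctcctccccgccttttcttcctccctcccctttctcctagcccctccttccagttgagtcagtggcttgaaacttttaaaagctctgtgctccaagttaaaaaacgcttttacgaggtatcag
Slc1a3, chr15:8710758-8711057, minus strand: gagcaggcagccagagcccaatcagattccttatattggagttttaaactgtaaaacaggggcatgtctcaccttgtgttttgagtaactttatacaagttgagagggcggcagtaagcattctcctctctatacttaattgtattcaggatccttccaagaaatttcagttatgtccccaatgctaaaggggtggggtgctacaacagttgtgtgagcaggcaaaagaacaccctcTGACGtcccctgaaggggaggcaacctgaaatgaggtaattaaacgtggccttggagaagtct
Gpr50, chrX:71663417-71663716, plus strand: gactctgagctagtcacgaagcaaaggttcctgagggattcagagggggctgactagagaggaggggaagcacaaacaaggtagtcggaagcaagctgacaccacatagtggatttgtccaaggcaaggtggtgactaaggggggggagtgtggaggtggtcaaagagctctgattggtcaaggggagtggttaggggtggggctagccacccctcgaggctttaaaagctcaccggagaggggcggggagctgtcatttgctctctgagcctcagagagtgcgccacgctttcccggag
Mia, chr7:27181100-27181399, minus strand: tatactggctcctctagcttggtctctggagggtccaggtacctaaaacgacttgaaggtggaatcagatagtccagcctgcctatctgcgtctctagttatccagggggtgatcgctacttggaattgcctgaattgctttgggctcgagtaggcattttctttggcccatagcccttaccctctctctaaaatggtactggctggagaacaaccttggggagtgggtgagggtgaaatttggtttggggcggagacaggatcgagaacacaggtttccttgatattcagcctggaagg

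The filament and calcium-binding markers of astrocytes were both higher in the knockout at the unadjusted level. Without an intensity trend in the test the unadjusted p was 0.029 for Gfap and 0.058 for S100b (limma). Gfap, the intermediate filament of astrocytes, read 8.90, 8.94 and 9.02 in the knockout arrays, against 8.82, 8.53, 8.88 and 8.58 in the wild-type arrays. The wild-type arrays spread over a wider range than the knockout arrays, and their highest, array 3, came close to the lowest knockout array. The log2 difference was 0.25 ± 0.091 (SE), 1.19-fold, and did not pass (limma, adjusted p = 0.362). All 3 Gfap probe sets were higher, by 0.24 to 0.27, and only the brightest separated the genotypes. S100b, a calcium-binding protein of astrocytes, read 11.55, 11.55 and 11.40 in the knockout arrays, against 11.48, 11.36, 11.29 and 11.29 in the wild-type arrays. Its groups overlapped through knockout array 3 and wild-type array 1. The S100b difference was 0.15 ± 0.058 (SE; limma, adjusted p = 0.385), and its second probe set differed by 0.22.

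Genes of glutamate uptake and recycling showed little difference. Slc1a2, the main glutamate transporter of the forebrain (GLT-1), read 12.69, 12.74 and 12.66 in the knockout arrays, against 12.71, 12.80, 12.62 and 12.90 in the wild-type arrays, a difference of -0.062 with a 95% interval of -0.20 to 0.078. Slc1a3, the second astrocyte glutamate transporter (GLAST), differed by 0.072 ± 0.046 (SE). The groups overlapped for both. Glul, the glutamine synthetase that turns the captured glutamate into glutamine, read 12.77, 12.98 and 12.91 in the knockout arrays, against 12.77, 12.97, 12.90 and 13.03 in the wild-type arrays. It was lowest on array 1 of either genotype, and the difference was -0.034. Probe sets of these genes did not all share a sign: the 6 of Slc1a3 ran from -0.12 to 0.23, the 5 of Slc1a2 from -0.062 to 0.14, and the dimmer probe set of Glul differed by 0.12.

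Of the 5 channels and transporters of the astrocyte membrane, 4 had intervals within 1.2-fold of no difference on their brightest probe sets. Slc4a4, the sodium bicarbonate cotransporter, read 11.60, 11.59 and 11.61 in the knockout arrays, against 11.68, 11.64, 11.61 and 11.63 in the wild-type arrays, and its difference of -0.041 had an interval of -0.11 to 0.027. Aqp4, the water channel of the endfeet, differed by 0.011 ± 0.050 (SE). Atp1b2, a subunit of the sodium pump that astrocytes carry, and Mlc1, a membrane protein of the endfeet involved in volume regulation, differed by -0.049 and -0.051. These 4 genes overlapped between genotypes. The 3 probe sets of Aqp4 ran from -0.13 to 0.14, and those of Slc4a4 and of Atp1b2 also differed in sign. Dimmer probe sets were less precise: the interval of the Aqp4 probe set at -0.13 was -0.31 to 0.050, past 1.2-fold. Slc14a1, a urea transporter, leaned the other way. It read 8.54, 8.49 and 8.42 in the knockout arrays, against 8.51, 8.29, 8.31 and 8.26 in the wild-type arrays, so that only wild-type array 1 overlapped the knockout. The difference was 0.15 ± 0.070 (SE; limma, adjusted p = 0.459), and its dimmer probe set, at 0.22, separated the genotypes without overlap.

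Of the 2 connexins that join astrocytes, Gja1 was slightly higher in the knockout at the unadjusted level, and Gjb6 was low on array 1 of both genotypes. Gja1 (connexin 43) read 12.78, 12.85 and 12.83 in the knockout arrays, against 12.74, 12.77, 12.76 and 12.76 in the wild-type arrays. The groups did not overlap, but the difference was only 0.059 ± 0.026 (SE), 1.04-fold (limma, adjusted p = 0.422), and the next 3 Gja1 probe sets by level differed by 0.017 to 0.028. Gjb6 (connexin 30) read 10.78, 11.17 and 11.20 in the knockout arrays, against 10.77, 11.07, 11.19 and 11.20 in the wild-type arrays. Its low arrays were array 1 of both genotypes, and the genotype difference was -0.0076 with an interval of -0.29 to 0.28. The oligodendrocyte score, over 15 markers, was also lowest on those arrays, -0.14 on knockout array 1 and -0.13 on wild-type array 1, against 0.017 and 0.083 on the other knockout arrays and -0.011 to 0.18 on the other wild-type arrays. Its part in the Gjb6 values was not tested.

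**Figure D3:**
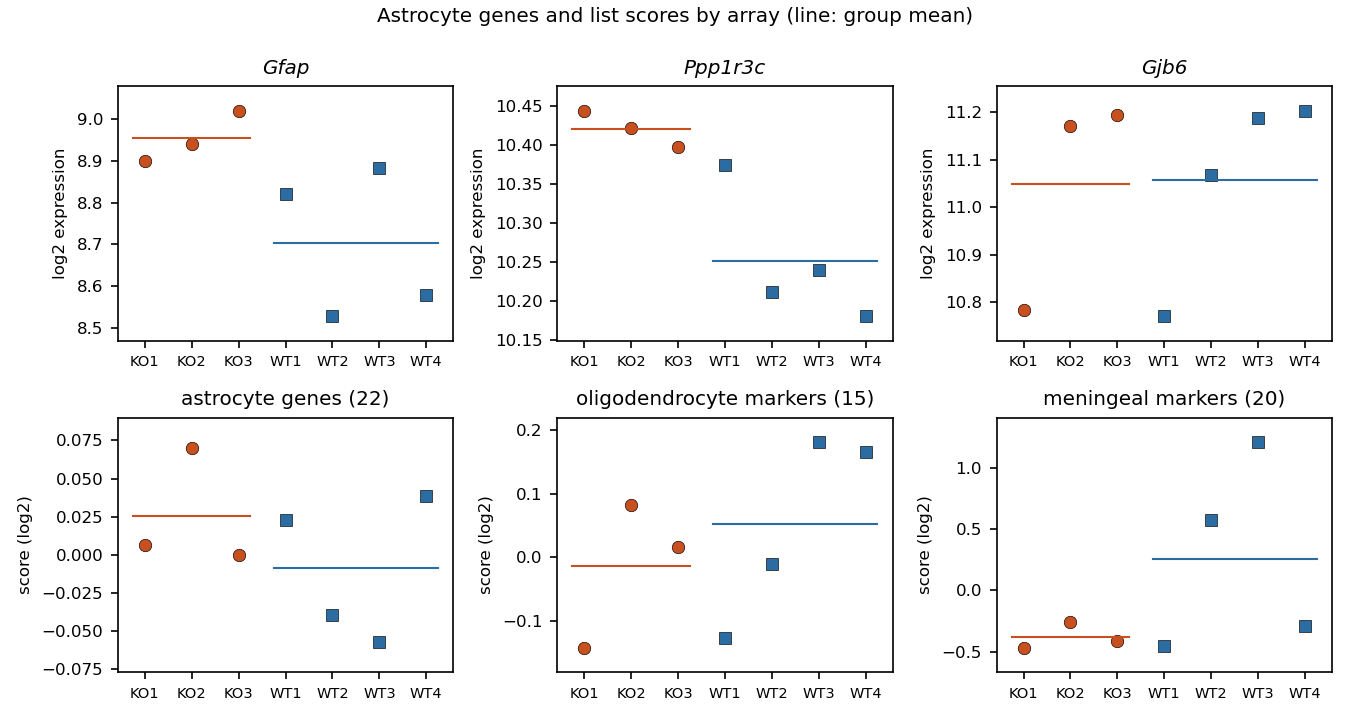
Gfap, Ppp1r3c and Gjb6 in log2 expression (top) and the scores of the 22 astrocyte genes, 15 oligodendrocyte markers and 20 meningeal markers (bottom) on each array, knockout (circles) left of wild type (squares), with a line at each group's mean. The knockout arrays lie above the wild-type arrays for Gfap and Ppp1r3c, Gjb6 is low on array 1 of both genotypes, and the meningeal score is highest, 1.21, on wild-type array 3.

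Among the metabolic enzymes, the smallest p-values belonged to genes of glycogen and of sulphur amino acids. Ppp1r3c, a targeting subunit that brings protein phosphatase 1 to glycogen and favours its synthesis, read 10.44, 10.42 and 10.40 in the knockout arrays, against 10.37, 10.21, 10.24 and 10.18 in the wild-type arrays. All knockout values were higher, and wild-type array 1 lay next to them. The difference was 0.17 ± 0.050 (SE), 1.12-fold (limma, adjusted p = 0.298). The dimmer probe set differed by 0.26, with groups that overlapped. Cbs, cystathionine beta-synthase, which channels homocysteine to cysteine and hydrogen sulphide, read 8.38, 8.34 and 8.30 in the knockout arrays, against 8.18, 8.27, 7.96 and 8.23 in the wild-type arrays. The groups did not overlap on this probe set, and overlapped on the dimmer one. Cbs differed by 0.18 ± 0.077 (SE; limma, adjusted p = 0.421), and both of its probe sets were alike in size of difference at 0.17 and 0.18. Without wild-type array 3, the lowest for Cbs, the difference was 0.11. Aldoc, the glycolytic aldolase C, differed by 0.012 with an interval of -0.066 to 0.090. Aldh1l1, a folate enzyme used as a pan-astrocyte marker, and Acsbg1, an acyl-CoA synthetase, differed by 0.047 and -0.020, and their groups overlapped.

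Receptors, the lineage factor and secreted proteins of astrocytes overlapped between the genotypes on their brightest probe sets. Fgfr3, a receptor for fibroblast growth factors, Ntsr2, a neurotensin receptor of astrocytes, and Sox9, a transcription factor of the astrocyte lineage, differed by -0.039, -0.021 and -0.059. The dimmer probe set of Fgfr3 differed by -0.19, with every knockout value below the wild-type values. Ntsr2 read 11.78, 12.23 and 12.06 in the knockout arrays, against 12.15, 12.07, 11.89 and 12.06 in the wild-type arrays, with the lowest and the highest value both in the knockout. Sox9 was highest on array 1 of either genotype, at 7.94 in the knockout and 7.98 in wild type, and its 3 probe sets differed in sign. The dimmest of them, under 5 on the log2 scale, differed by 0.15, with every knockout value above the wild-type values. Agt, the angiotensinogen that astrocytes secrete, and Itih3, a hyaluronan-associated plasma protein, differed by 0.053 and 0.0058, with groups that overlapped.

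Of the tanycyte genes, Gpr50 showed the largest difference of all 33. Gpr50 is an orphan receptor related to the melatonin receptors and is known from tanycytes and the dorsomedial nucleus. It read 8.93, 8.70 and 8.62 in the knockout arrays, against 8.73, 8.12, 8.05 and 8.10 in the wild-type arrays. Wild-type array 1 was at the level of the knockout arrays, and the other wild-type arrays lay close together below them. The difference was 0.50 ± 0.16 (SE), 1.41-fold, with an interval of 0.14 to 0.86, and did not pass (limma, adjusted p = 0.321). Without wild-type array 1 it was 0.66 and passed (limma, adjusted p = 0.0435), the only value past the threshold among all 33 genes and 16 alternatives. Without that array 21 of all 18193 genes passed, against 2 with all arrays. Without wild-type arrays 2 and 3 the Gpr50 difference was 0.33 (limma, adjusted p = 0.781). Its dimmer probe set differed by 0.37. Pomc read 10.30, 9.68 and 9.66 in the knockout arrays, against 10.28, 9.24, 9.49 and 9.69 in the wild-type arrays, and was, like Gpr50, highest on array 1 of each genotype. Gpr50 lies on the X chromosome. Xist, the transcript of the inactive X chromosome, was at 12.26 to 12.54 on knockout array 1 and wild-type arrays 1 and 4. It was at 5.52 to 6.37 on the others. The Gpr50 difference was 0.51 among the arrays of high Xist (1 knockout, 2 wild-type) and 0.57 among the others (2 and 2). The first value rests on 1 knockout array at 8.93, against wild-type values of 8.73 and 8.10. What part sex had in the Gpr50 values was not tested.

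Rax, the homeobox factor that marks tanycytes, was also higher at the unadjusted level. It read 6.20, 6.09 and 5.86 in the knockout arrays, against 5.85, 5.73, 5.80 and 5.84 in the wild-type arrays. Knockout array 3 lay only just above wild-type array 1. The difference was 0.25 ± 0.092 (SE; limma, adjusted p = 0.371), and 0.17 without knockout array 1 and 0.34 without knockout array 3. Crym, a thyroid hormone-binding protein of tanycytes that neurons make too, read 6.29, 6.26 and 6.51 in the knockout arrays, against 6.16, 6.77, 6.30 and 6.37 in the wild-type arrays. Its highest value was on wild-type array 2, the array of highest thalamic score, and the difference of -0.044 became 0.079 without that array. Of the 3 genes of tanycyte identity, 2 were higher and 1 was lower, and none passed.

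**Figure D4:**
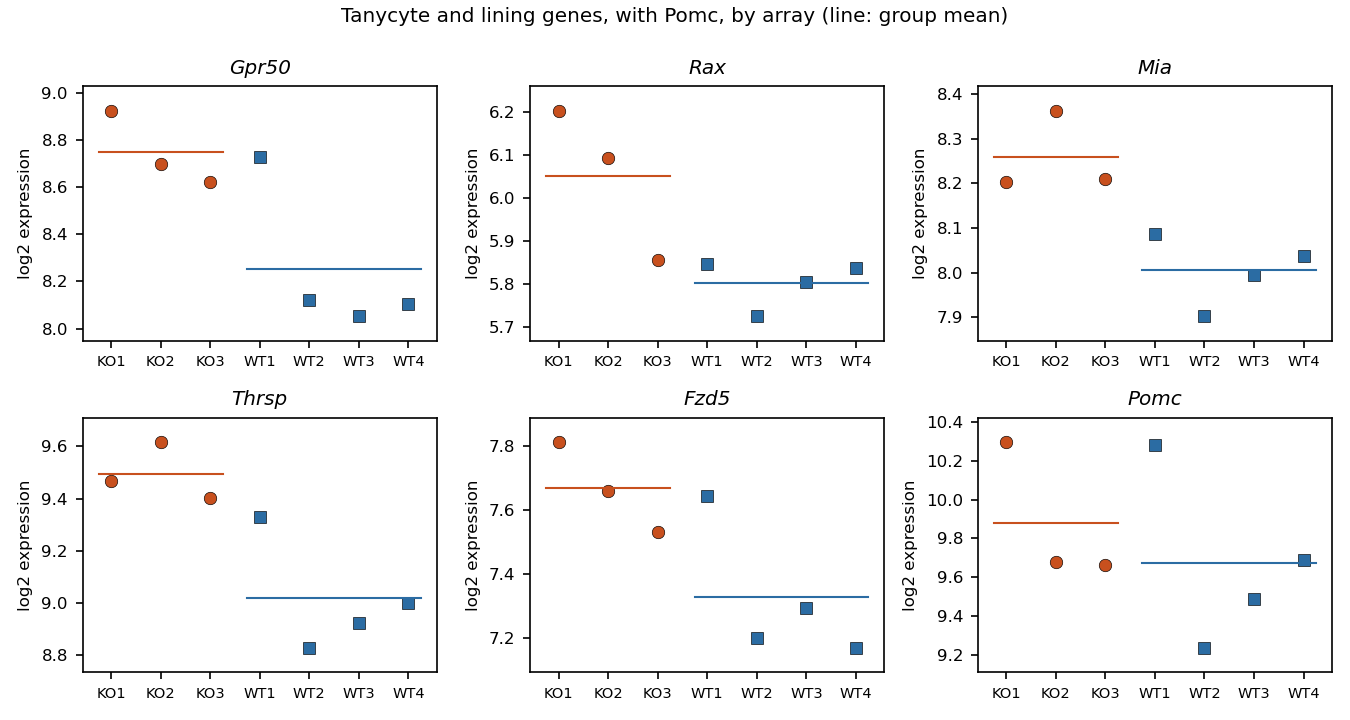
Log2 expression of Gpr50, Rax, Mia, Thrsp, Fzd5 and Pomc on each array, knockout (circles) left of wild type (squares), with a line at each group's mean. The 6 genes shown are a selection, and all have their highest wild-type value on array 1, where Pomc read 10.28. Crym and Slco1c1, not shown, do not: their highest wild-type values were on arrays 2 (6.77) and 3 (10.13). The 3 knockout values of Rax (by a small margin), Mia and Thrsp all lie above the wild-type values.

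The secreted proteins of the lining differed from each other. Mia, a small secreted protein first known from melanoma and cartilage, had the smallest p of the 33 genes. It read 8.20, 8.36 and 8.21 in the knockout arrays, against 8.09, 7.90, 7.995 and 8.04 in the wild-type arrays, with no overlap. The difference was 0.25 ± 0.066 (SE), 1.19-fold, and did not pass (limma, adjusted p = 0.267). With any 1 array left out it stayed between 0.20 and 0.28, and it rests on 1 probe set. Its promoter window, printed above, held no CRE core, which is a description only. Rarres2, the precursor of the chemoattractant and adipokine chemerin, which tanycytes make, read 9.25, 9.41 and 9.25 in the knockout arrays, against 9.55, 9.25, 9.23 and 9.40 in the wild-type arrays. Its groups overlapped, the difference was -0.053, and each of its 3 probe sets was lower, the furthest at -0.090.

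Intermediate filaments that mark radial glia, tanycytes and the vessel wall did not separate the genotypes on their brightest probe sets. Vim (vimentin) read 9.72, 9.96 and 9.98 in the knockout arrays, against 9.86, 9.95, 10.23 and 9.85 in the wild-type arrays. The highest value was that of wild-type array 3, which also had the highest meningeal score, and without that array the difference of -0.087 became 0.00029. The 3 Vim probe sets differed in sign, from -0.14 to 0.022. Nes (nestin) differed by 0.070 ± 0.087 (SE), and its 3 probe sets by 0.070, 0.12 and 0.22. The largest of these came from a probe set under 5 on the log2 scale, where every knockout value was above the wild-type values. Among the 6 probe sets of the 33 genes under that level, 5 were higher in the knockout, with a median of 0.14, and 9153 of all 14731 probe sets under it were higher, with a median of 0.033.

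Genes of the ependymal cilia overlapped between the genotypes, with differences of -0.070 to 0.028. Foxj1, the master factor of motile cilia, read 7.03, 7.21 and 6.91 in the knockout arrays, against 7.05, 7.07, 7.02 and 7.15 in the wild-type arrays, a difference of -0.023 ± 0.081 (SE). Dynlrb2, a light chain of ciliary dynein, and Tmem212, a membrane protein of ependymal cells, differed by -0.061 and -0.070. The interval of Tmem212, -0.18 to 0.044, excludes a change of 1.2-fold. Ccdc153, a coiled-coil protein used as a marker of ependymal cells, read 8.21, 8.37 and 8.31 in the knockout arrays, against 8.27, 8.42, 7.96 and 8.43 in the wild-type arrays. It was lowest on wild-type array 3, and the difference was 0.028.

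Promoters of cilia genes were also read for a motif of ciliary factors. RFX factors, which work with Foxj1 in building cilia, bind the X-box, and its core GTTGCC or GGCAAC was found in the windows of Ccdc153 and Dynlrb2, 2 of the 3 cilia genes with a window. Over the 33 genes it was in 6 of the 28 windows, and over all genes in 12.5% of windows. A match of letters is a description and does not show that a factor binds. Both windows are shown with the core in capitals.
Ccdc153, chr9:44240427-44240726, plus strand: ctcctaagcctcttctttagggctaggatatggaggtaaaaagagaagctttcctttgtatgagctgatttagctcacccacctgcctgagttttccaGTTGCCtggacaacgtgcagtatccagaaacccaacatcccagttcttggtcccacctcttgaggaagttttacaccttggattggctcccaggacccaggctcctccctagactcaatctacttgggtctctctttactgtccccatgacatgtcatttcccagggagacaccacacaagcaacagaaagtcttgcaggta
Dynlrb2, chr8:116504765-116505064, plus strand: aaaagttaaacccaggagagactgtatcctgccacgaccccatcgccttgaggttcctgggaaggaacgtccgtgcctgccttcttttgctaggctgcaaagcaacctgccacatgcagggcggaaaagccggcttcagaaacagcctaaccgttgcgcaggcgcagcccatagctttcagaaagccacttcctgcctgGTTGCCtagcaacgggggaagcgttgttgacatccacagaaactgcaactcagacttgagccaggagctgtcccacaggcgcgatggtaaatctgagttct

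Differences within each sex are given as values only. Sex was read from Xist and the Y-linked Eif2s3y, and gave 1 knockout and 2 wild-type females and 2 knockout and 2 wild-type males. Of the 33 genes, 12 were lower in the knockout within females and higher within males, 3 were the other way round, 12 were higher in both and 6 lower in both. Among the 12 of opposite sign, Ntsr2 was at -0.33 within females and 0.17 within males, Rarres2 at -0.22 and 0.091, Gjb6 at -0.20 and 0.055, and Ccdc153 at -0.14 and 0.15. Sox9 was at 0.13 within females and -0.14 within males. The females included only 1 knockout array, and no test was made within a sex.

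Further genes of the same cells were read from lists that do not overlap the 33. Of 40 measured astrocyte genes 24 were higher, with a median of 0.010, and 0 passed (limma). At an unadjusted p under 0.05, 1 was higher and 4 were lower, 5 of 40 in all, close to the 11.7% of all genes at that p. On the other 5 arrays, leaving out wild-type arrays 2 and 3, 22 were higher, with a median of 0.0058, and at that p 0 were higher and 5 lower. Of all 18193 genes, 478 were higher and 736 lower at that p on those 5 arrays. Etnppl, an ethanolamine-phosphate phospho-lyase of astrocytes, read 10.37, 10.35 and 10.40 in the knockout arrays, against 10.51, 10.78, 10.47 and 10.72 in the wild-type arrays, a difference of -0.25 (limma, adjusted p = 0.308). Ptprz1, a receptor phosphatase of glia and their progenitors, differed by -0.11. For both, every knockout value was below every wild-type value. Cldn10, a claudin of astrocytes, was at 10.50, 10.46 and 10.49 in the knockout arrays, against 10.51, 10.17, 9.96 and 10.09 in the wild-type arrays, and wild-type array 1 was again level with the knockout.

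Tanycyte genes outside the 33 included others with the pattern of Gpr50. Of 17 measured, 9 were higher, with a median of 0.040, 3 were higher at an unadjusted p under 0.05 and none was lower at that p, where 5.6% of all genes were higher. None passed (limma, smallest adjusted p = 0.26). Thrsp, a lipogenic protein induced by thyroid hormone, read 9.47, 9.62 and 9.40 in the knockout arrays, against 9.33, 8.83, 8.92 and 9.001 in the wild-type arrays, and the groups did not overlap. Its difference was 0.47 ± 0.11 (SE; limma, adjusted p = 0.26). Fzd5, a Wnt receptor, read 7.81, 7.66 and 7.53 in the knockout arrays, against 7.64, 7.20, 7.29 and 7.17 in the wild-type arrays, a difference of 0.34. Slco1c1, a thyroxine transporter of tanycytes, astrocytes and brain endothelium, differed by 0.23. In Thrsp and Fzd5, as in Gpr50, wild-type array 1 was the highest of its group. Slco1c1 was highest on wild-type array 3 instead, at 10.13, against 10.07 on wild-type array 1. Of 33 ependymal genes 19 were higher, with a median of 0.039. At the unadjusted level 2 were higher and 2 lower, 4 of 33, again close to the 11.7% of all genes. The genes of smallest p were Dnali1, an axonemal dynein light intermediate chain, at 0.25, Tppp3, a tubulin-binding protein, at 0.15 and Ak7, an adenylate kinase of cilia, at -0.17, and 0 of the list passed (limma). The median without wild-type arrays 2 and 3 was -0.025 for the tanycyte list and -0.023 for the ependymal list, and 8 of 17 and 13 of 33 were higher. Without those arrays 1 tanycyte gene was higher and 0 lower at an unadjusted p under 0.05, and no ependymal gene was either. Of all 18193 genes, 478 were higher and 736 lower at that p. Thrsp, Slco1c1 and Fzd5 then differed by 0.33, 0.22 and 0.26 (limma, adjusted p = 0.730 to 0.790).

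Markers of other cell types were mostly lower in the knockout, and their part in the values above was not tested. Of 17 neuron markers 13 were lower in the knockout, with a median of -0.063. Their score was -0.052 to -0.013 on the knockout arrays, against -0.021 to 0.083 on the wild-type arrays, and Rbfox3, Meg3 and Slc12a5 differed by -0.18, -0.14 and -0.11. Of 13 microglia markers 9 were lower, with a median of -0.086, led by Fcrls at -0.88, with Csf1r at -0.16 and Tmem119 at 0.10. Of 14 endothelial and mural markers 11 were lower, with a median of -0.14 and scores of -0.13 to -0.053 on the knockout arrays, against 0.013 to 0.11 on the wild-type arrays. Pdgfrb, Acta2 and Slco1a4 differed by -0.40, -0.34 and -0.24. Of 15 oligodendrocyte markers 10 were lower, with a median of -0.092, and Cspg4, Opalin and Pdgfra differed by -0.16, -0.29 and -0.10. Meningeal markers were lower for 18 of 20, with a median of -0.68, and Bmp6, Igfbp2 and Aldh1a2 differed by -0.73, -1.17 and -1.19. The wild-type arrays of high meningeal score were 2 and 3: when both were left out, 11 of the 20 were lower, with a median of -0.019, and the 3 genes differed by -0.26, -0.30 and -0.18. Thalamic markers were lower for 14 of 16, with a median of -0.34, and Amotl1, Adarb1 and Cplx1 differed by -0.17, -0.33 and -0.14. Without the same arrays 13 of the 16 were lower, with a median of -0.14. That removal kept wild-type array 4, whose thalamic score of 0.19 came next below that of array 2. It left out array 3, at -0.13. Markers of the choroid plexus, an epithelium continuous with the ependyma, were lower for 8 of 11, with a median of -0.067; Sostdc1, Kl and Kcne2 differed by -0.23, -0.22 and 0.18. When wild-type arrays 2 and 3 were left out, 15 of the neuron markers were lower (median -0.045), 11 of the microglia markers (-0.077), 12 of the endothelial and mural markers (-0.097), 9 of the oligodendrocyte markers (-0.043) and 6 of the choroid plexus markers (-0.023). With all arrays, none of the genes in these 7 lists passed (limma, smallest adjusted p = 0.0624, for Fcrls).

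Across arrays, the astrocyte score ran from -0.00043 to 0.070 in the knockout and from -0.057 to 0.039 in wild type, and the lining score from -0.054 to 0.073 in the knockout and from -0.078 to -0.0075 in wild type. The ranges overlapped in both. Wild-type array 3 held the lowest value of 10 of the 33 genes and wild-type array 4 the highest value of 10, where these arrays held the lowest and the highest value of 14.6% and 10.5% of all genes.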

How the data were processed

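The files hold deposited log2 values, 1 array per sample on the mouse430_2 platform, for 3 knockout and 4 wild-type hypothalami. The submitters' processing notes name R 2.10.0, affy and RMA, without their order or settings. RMA usually equalises the arrays' distributions and makes no detection calls, and dim probe sets may therefore be background. Of 45101 probe sets, 64 controls were left out. The platform annotation gave 34945 probe sets 1 symbol, 932 several and 9160 none, and a probe set that a listed gene shared with another gene was not used.

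The probe set of highest mean stood for each of 18193 genes. Genotypes were compared in limma 3.58.1 under R 4.3.3, by lmFit and a two-sided moderated test (eBayes, trend with intensity); p-values were adjusted by Benjamini and Hochberg's method over all genes, with a threshold of 0.05. The median standard error was 0.073, and precision is limited by the few arrays. The fit was tested on simulated data. Members, gene lists and alternatives were chosen with earlier results of these data known. All 33 genes are named, with the 3 genes of smallest p in each other list; Pomc and Xist were added after their values were seen. No label says that arrays of the same number share a mouse or a batch, and no block was used. Each p-value sets the difference in group means against the spread between samples within the genotypes, moderated over genes. The labels do not say whether that spread is between single mice or pools. Promoters are RefSeq's (GRCm38.p6). Python 3.11.15 and matplotlib 3.10.9 made the figures.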

Additional observations from a re-analysis of the deposited data

Results flagged for a closer look

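In the 4 wild-type arrays, a value was singled out where its gap to the nearest other array took up more of the group's range than Dixon's 95% critical value for 4 samples allows. Chance marks about 1 in 20 groups, and 3 of 67 were marked. Gpr50 was 8.73 on wild-type array 1, above the other wild-type arrays at 8.05 to 8.12 and within the range of the knockout arrays. Fgfr3 was 11.20 on wild-type array 4, above 11.02 to 11.05 on the others. Pdgfra, a marker of oligodendrocyte precursors, was 10.03 on wild-type array 3.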

How the results depend on the processing

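Of 528 values (33 genes under 16 alternatives), 479 kept direction and side of the threshold, 48 changed sign, and 1 (Gpr50 without wild-type array 1) passed. Few arrays and dim signals near background limit what could be seen, and causes of the changes below were not tested.

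Over all genes 2 passed, 1 with the mean of all probe sets of a gene, 7 with array weights, and 2 to 21 with 1 array left out (21 without wild-type array 1, 8 without knockout array 1, 6 without wild-type array 2). Of all probe sets 3 passed, 5 with sex as a covariate, and 3 to 46 with 1 array left out (16, 9 and 5 when knockout array 1, 2 or 3 was left out, and 46 and 12 when wild-type array 1 or 2 was). The median of the lining genes, -0.023, was 0.032 without wild-type arrays 2 and 3 and -0.042 to 0.050 with 1 array left out. The median of the astrocyte genes ran from -0.0087 to 0.046.

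Genes that changed sign had differences between -0.087 (Vim) and 0.070 (Nes) in the main fit, and some were larger under an alternative. With the mean of probe sets Slc1a2 was 0.064, Glul 0.044 and Sox9 0.055. After quantile normalization Gjb6 was 0.0032, Acsbg1 0.0088 and Itih3 -0.0018. With array weights Itih3 was -0.013, and with sex as a covariate Acsbg1 was 0.00036. Without wild-type arrays 2 and 3 Gjb6 was 0.063, Aldoc -0.038, Itih3 -0.13, Crym 0.092, Vim 0.032 and Ccdc153 -0.051. The covariate and the removal of these arrays were chosen after seeing the data.

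With the replicate block (arrays 1 to 3), 2 genes and 2 probe sets passed, and Glul was 0.0036, Aqp4 -0.0058, Gjb6 0.041, Fgfr3 0.0020 and Foxj1 0.0032. Same-numbered arrays correlated at 0.32, 0.077 and 0.18 in their deviations from group means, and 5 of 6 arrays correlated best with their own number, a hint from the data only.

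With 1 array left out, signs changed within these ranges: Glul -0.084 to 0.024, Aqp4 -0.019 to 0.043, Gjb6 -0.10 to 0.13, Aldoc -0.0092 to 0.038, Acsbg1 -0.083 to 0.026, Fgfr3 -0.085 to 0.0026, Ntsr2 -0.12 to 0.10, Sox9 -0.17 to 0.050, Itih3 -0.054 to 0.054, Crym -0.12 to 0.079, Vim -0.13 to 0.00029, Nes -0.016 to 0.15, Foxj1 -0.10 to 0.044, Ccdc153 -0.075 to 0.081, Dynlrb2 -0.11 to 0.037 and Rarres2 -0.10 to 0.010.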
